A study of Homo sapiens with 4 samples.

Results

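The guided entry of tail-anchored proteins (GET) pathway was followed in DLD-1 human colorectal cancer cells that stably overexpressed miR-21 (DLD-1-miR-21) and in DLD-1 cells with the empty vector (DLD-1-miR-Vec). The question of the array experiment was which transcripts differed between these lines. The set held 7 genes, namely ASNA1, GET4, WRB, CAMLG, BAG6, SGTA and UBL4A, and its members were all probes that carried the symbol of one of these genes and no other. This gave 8 of the 31741 probes on the array, for 6 of the 7 genes. GET4 and WRB had 2 probes each, and UBL4A had none with its symbol, so UBL4A was not analysed here. The set was selected on the log2 ratio of ASNA1, which fell strongly on these same arrays. The values of ASNA1 are therefore a description without a test. The other 5 measured genes were taken for their place in the pathway, with earlier results of these data known.

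Each line was measured on 2 single-color arrays. DLD-1-miR-21 cells had been transfected with a human miR-21 plasmid and DLD-1-miR-Vec cells with its pCMV-MIR control. Both were kept under G418 selection, and in both the GFP-positive single clones were pooled, so each line is a mixture of clones from 1 selection. Whether replicate arrays of a line were separate cultures is not stated, and the p-values here therefore reflect array-to-array spread that can be technical.

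Tail-anchored proteins carry a single membrane segment at their C-terminus. It leaves the ribosome only when translation ends, so these proteins cannot use the cotranslational signal recognition particle route and are handed along a chain of cytosolic factors. In this chain SGTA binds the freshly made segment, the BAG6, GET4 and UBL4A complex passes it on to the ATPase ASNA1 (GET3, also TRC40), and the receptor of WRB (GET1) and CAMLG receives ASNA1 at the endoplasmic reticulum (ER). SNARE proteins of vesicle fusion are among the best-known clients.

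By design the lines differed in the miR-21 insert of the plasmid, and they were also selected separately. The mature 5p strand of miR-21, the form that the paper studied, is shown here. RefSeq places it at chr17:59841273-59841294 on the plus strand of GRCh38.p14, and the capitals mark the seed, bases 2 to 8.
hsa-miR-21-5p: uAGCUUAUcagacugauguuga

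The deposited intensities had medians of 255 and 339 for DLD-1-miR-21 cells and of 571 on each array for DLD-1-miR-Vec cells, so they were quantile-normalized, 50 was added and log2 was taken. Without that step the median log2 ratio over all probes was -0.63, and with it 0.07. This scaling equalizes the arrays, and a general drop in RNA would be hidden by it. No probe carried the symbol MIR21 alone. The authors reported miR-21 overexpression by qPCR, and lower PDCD4 by qPCR and Western blot, in DLD-1-miR-21 cells. PDCD4, a known miR-21 target, had a log2 ratio of -0.08 on its brighter probe (adjusted p = 0.617 from limma) and of -0.65 on its dimmer probe (adjusted p = 0.0225), where intensities were 37 and 46 in DLD-1-miR-21 cells and 140 and 125 in DLD-1-miR-Vec cells. Of 8 measured colon epithelial markers, 7 lay above the array median on each array. KRT8 was below it in DLD-1-miR-21 cells and VIL1 in DLD-1-miR-Vec cells, while EPCAM, CDH1, KRT19 and CDX2 were bright in both. Of the 8, 2 were called higher, KRT20 and VIL1, and 2 lower, EPCAM and KRT8 (limma). Log2 ratios in this list ran from -1.17 (KRT8) to 1.58 (VIL1). The summed normalized intensity of the 8 was 213852 and 218404 in DLD-1-miR-21 cells, against 229452 and 241100 in DLD-1-miR-Vec cells. KRT19, which did not pass (log2 ratio 0.24, adjusted p = 0.198 from limma), made up most of this sum. The 6 mesenchymal markers summed to 4613 and 6093 in DLD-1-miR-21 cells and to 4355 and 3425 in DLD-1-miR-Vec cells, most of it from COL1A1 (log2 ratio 0.67, adjusted p = 0.125 from limma), while PDGFRB (1.10) and COL1A2 (0.73) were higher and VIM (-1.79) lower. The 6 immune and endothelial markers summed to 8670 and 9069 in DLD-1-miR-21 cells and to 3858 and 4073 in DLD-1-miR-Vec cells. Most of this came from CD14 (log2 ratio 1.43). Of the 6, 2 (33.3%) were called higher, VWF and CD14, against 24.6% of all genes. The count of lower markers was 0, against 22.4% of all genes (limma, also 0 at an unadjusted p under 0.05). No marker was listed at 0, and PTPRC and CD3E were dim on all arrays. The part of these markers in the results was not tested.

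Across the pathway, the ATPase ASNA1 was 16.3-fold lower in DLD-1-miR-21 cells. The receptor subunit WRB was lower on both of its probes, the cochaperone SGTA was 2.24-fold lower, and the BAG6 complex subunit GET4 was lower on 1 probe and not on the other. BAG6 differed little. CAMLG, the partner of WRB, was higher, but its deposited intensities overlapped between the lines and the call was lost in 5 of 12 alternatives. Of the 7 probes of genes other than ASNA1, 4 were lower and 1 was higher, while 2 missed an adjusted p of 0.05 (limma, Benjamini-Hochberg over all probes). Over the whole array 21.8% of probes were lower and 23.0% higher at this threshold, so calls were common everywhere. After quantile normalization the arrays of the lines did not overlap in any of the 8 probes, with DLD-1-miR-21 below DLD-1-miR-Vec in 5 and above in 3, but over all probes the same held for 34.8% and 41.4%. In the deposited values CAMLG overlapped, and BAG6 and the brighter GET4 probe lay below DLD-1-miR-Vec. The median log2 ratio of the 8 probes was -1.02. These numbers include ASNA1, for which the set was chosen, and describe the set only.

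**Figure D1:**
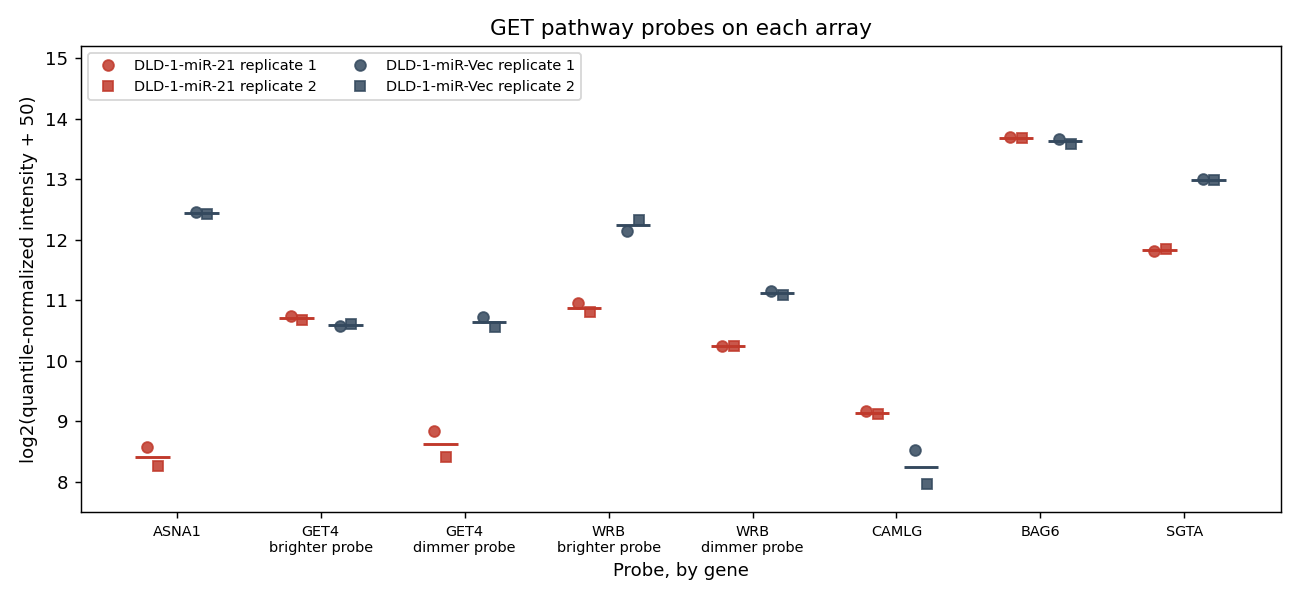
Level of each GET pathway probe, as log2 of the quantile-normalized intensity plus 50 (vertical axis), on every array, by gene (horizontal axis). Points are single arrays and short lines the means of 2 arrays, with DLD-1-miR-21 left of DLD-1-miR-Vec. ASNA1 lies at 8.57 and 8.27 in DLD-1-miR-21 cells against 12.46 and 12.43 in DLD-1-miR-Vec cells, while the BAG6 arrays lie between 13.59 and 13.69.

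ASNA1 encodes the ATPase that shields the membrane segment of a client and delivers it to the ER. Its single probe had intensities of 199 and 223 in DLD-1-miR-21 cells, against 7570 and 8000 in DLD-1-miR-Vec cells. Both DLD-1-miR-21 arrays were thus far below both DLD-1-miR-Vec arrays. Within its own array the probe stood at percentiles 44.5 and 39.2 of all probes in DLD-1-miR-21 cells, and at 86.9 and 86.8 in DLD-1-miR-Vec cells. This ranking within an array does not depend on scaling between arrays, and it placed the probe below the median in one line and among the brighter probes in the other. After normalization the mean levels were 8.42 and 12.44 log2 units in DLD-1-miR-21 and DLD-1-miR-Vec cells, which gave a log2 ratio of -4.02 (standard error 0.15). The ratio between single arrays of the lines ran from -4.19 to -3.86. The arrays of 1 line differed by 0.30 log2 units in DLD-1-miR-21 cells and by 0.03 in DLD-1-miR-Vec cells. Only 26 probes (0.0819%) had a log2 ratio at or below -4, and ASNA1 was number 25 from the lowest, which is what it was chosen for. With no normalization the ratio was -4.91, which is -4.28 relative to the median of all probes.

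**Figure D2:**
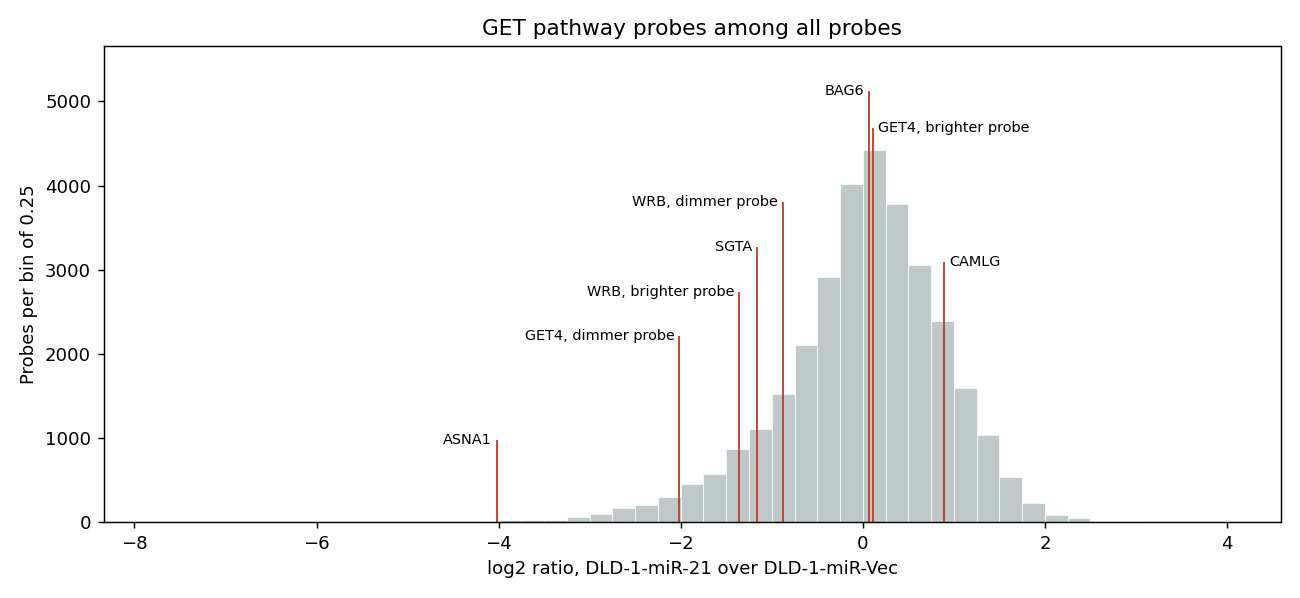
Number of probes (vertical axis) by log2 ratio, DLD-1-miR-21 divided by DLD-1-miR-Vec (horizontal axis, bins of 0.25) over all 31741 probes, with the GET pathway probes as red lines whose heights carry no value. ASNA1 at -4.02 lies in the far lower tail, the dimmer GET4 probe at -2.01, and BAG6 and the brighter GET4 probe lie at the center of the distribution.

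SGTA, the cochaperone that binds the membrane segment upstream of ASNA1, had intensities of 1896 and 2243 in DLD-1-miR-21 cells, against 10979 and 11857 in DLD-1-miR-Vec cells. The lines were well apart and the arrays within a line nearly equal, with mean normalized levels of 11.83 log2 units in DLD-1-miR-21 cells and 12.99 in DLD-1-miR-Vec cells and gaps between replicate arrays of 0.027 log2 units in DLD-1-miR-21 cells and 0.0023 in DLD-1-miR-Vec cells. The log2 ratio was -1.16 (standard error 0.12, adjusted p = 0.00401 from limma). Its rank within the array was at percentiles 82.1 and 82.3 in DLD-1-miR-21 cells and 90.1 on both DLD-1-miR-Vec arrays.

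BAG6 is the large chaperone that holds clients for ASNA1 and routes those that fail to degradation. Its intensities were 7500 and 8130 in DLD-1-miR-21 cells, against 17312 and 17964 in DLD-1-miR-Vec cells. Both DLD-1-miR-21 values lay below both DLD-1-miR-Vec values, as the array medians did. Within its array the probe ranked at percentile 93.4 in each DLD-1-miR-21 replicate, against 93.3 and 93.0 for DLD-1-miR-Vec. After normalization the log2 ratio was 0.06 (standard error 0.12, adjusted p = 0.693 from limma). The sign of this small value depended on the scaling, as it was -0.046 with cyclic loess, -0.32 with median centring and -1.17 with no normalization.

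GET4 (TRC35) is a subunit of the BAG6 complex, which hands clients to ASNA1. Its 2 probes, named brighter and dimmer by their mean log2 level over the 4 arrays, gave different answers. In DLD-1-miR-Vec cells their mean normalized levels were close, at 10.59 and 10.65 log2 units. In DLD-1-miR-21 cells they were 10.70 and 8.63. The brighter probe had intensities of 883 and 1036 in DLD-1-miR-21 cells and of 2015 and 2176 in DLD-1-miR-Vec cells. It stood at percentiles 72.3 and 71.6 in DLD-1-miR-21 cells and at 70.6 and 70.9 in DLD-1-miR-Vec cells, and its log2 ratio was 0.11 (standard error 0.12, adjusted p = 0.466 from limma), with -0.24 under median centring and -1.09 with no normalization. The dimmer probe had 241 and 246 in DLD-1-miR-21 cells, against 2258 and 2109 in DLD-1-miR-Vec cells. On this probe the lines were far apart, at percentiles 48.8 and 41.9 in DLD-1-miR-21 cells and 72.2 and 70.5 in DLD-1-miR-Vec cells. The log2 ratio was -2.01 (standard error 0.19, adjusted p = 0.00382). The ratios of the 2 probes differed by 2.13 log2 units, against at most 0.44 between arrays of a line on either probe. No direction can be given for GET4 as a gene, and the part of the transcript that each probe meets is not given in the sources used here.

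WRB anchors ASNA1 at the ER membrane through a cytosolic coiled coil. Its brighter probe had intensities of 1026 and 1118 in DLD-1-miR-21 cells, against 6133 and 7458 in DLD-1-miR-Vec cells. The dimmer probe had 624 and 792 in DLD-1-miR-21 cells, against 3055 and 3078 in DLD-1-miR-Vec cells. Both probes were lower on both DLD-1-miR-21 arrays. The log2 ratios were -1.36 (standard error 0.14, adjusted p = 0.00434 from limma) on the brighter probe and -0.88 (standard error 0.12, adjusted p = 0.00731) on the dimmer one. WRB was the only gene of the set with several probes that passed in the same direction.

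CAMLG is the second receptor subunit, which forms the ER receptor together with WRB. Its intensities were 297 and 387 in DLD-1-miR-21 cells, just above the array medians, and 414 and 232 in DLD-1-miR-Vec cells, below them. The deposited values of the lines overlapped, and only the normalized ones did not. Within the array the probe stood at percentiles 53.7 and 52.9 in DLD-1-miR-21 cells and at 43.7 and 33.7 in DLD-1-miR-Vec cells. The DLD-1-miR-Vec arrays differed from each other by 0.56 log2 units, the widest gap within a line among the 8 probes. The log2 ratio was 0.90 (standard error 0.22, adjusted p = 0.0325 from limma). It did not pass with cyclic loess (0.79, adjusted p = 0.0763), with no normalization (0.11, adjusted p = 0.802), without DLD-1-miR-21 replicate 1 (0.91, adjusted p = 0.185) or 2 (0.97, adjusted p = 0.185), or without DLD-1-miR-Vec replicate 2 (0.57, adjusted p = 0.0707).

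Each array was also left out in turn, which leaves 1 array in that line and takes the spread from the other line alone, so the lone array is assumed to vary like those of the other line. Without DLD-1-miR-21 replicate 2 none of the 4 lower probes outside ASNA1 passed, at adjusted p of 0.0551 to 0.0598 from limma, and all passed at an unadjusted p under 0.05. Their log2 ratios were about as large as with all arrays, at -1.86 for the dimmer GET4 probe, -1.29 and -0.90 for WRB and -1.18 for SGTA. No probe of the whole array passed in that setting, where an unadjusted p under 0.05 was reached by 6341 higher and 6629 lower probes. Over the whole array 1721 probes were called higher and 3784 lower without DLD-1-miR-21 replicate 1, against 7294 and 6912 with all arrays, and the dimmer WRB probe did not pass then (-0.88, adjusted p = 0.052). Without DLD-1-miR-Vec replicate 1 the whole-array counts were 6702 higher and 5978 lower, and without replicate 2 of that line 4528 higher and 4691 lower. With 2 arrays a line, an exact permutation test of a single probe could not go below p = 0.333 (two-sided).

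**Figure D3:**
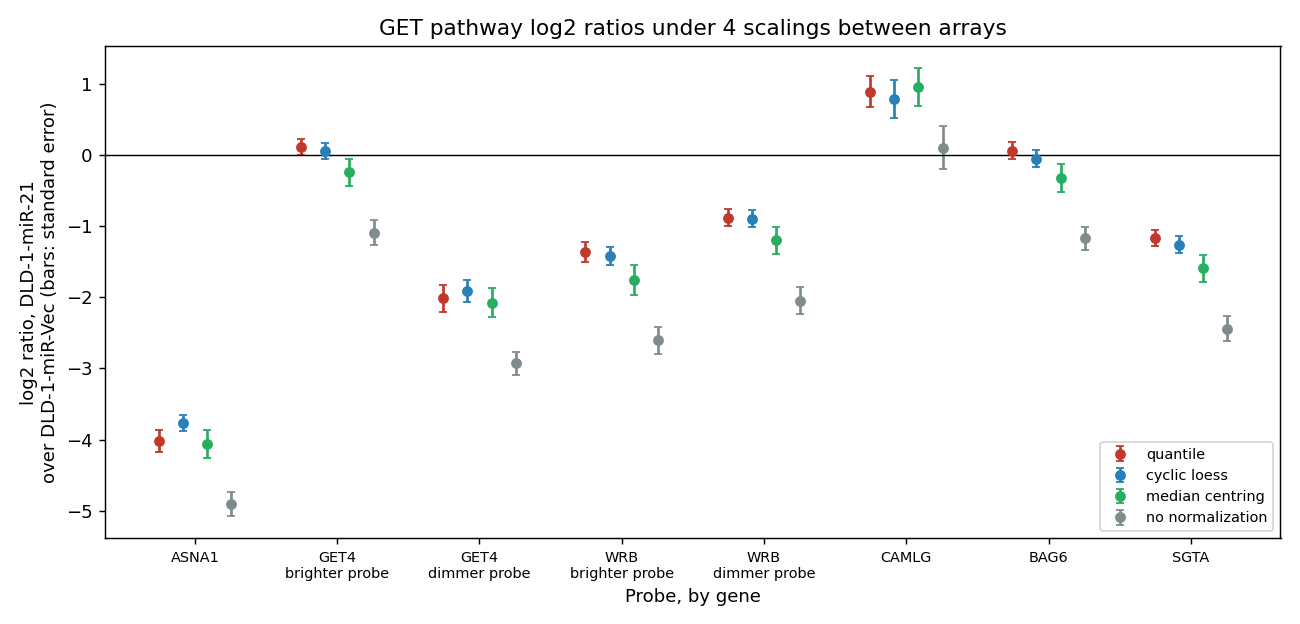
Log2 ratio, DLD-1-miR-21 divided by DLD-1-miR-Vec (vertical axis) for each GET pathway probe (horizontal axis) with quantile normalization, cyclic loess, median centring and no normalization between arrays. Points are limma estimates and bars standard errors (n = 2 arrays a line). ASNA1, SGTA, both WRB probes and the dimmer GET4 probe lie below 0 under all 4, whereas BAG6 and the brighter GET4 probe change sign.

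The array pattern of ASNA1 was compared with that of every other gene, by the distance between log2 levels on the 4 arrays after the DLD-1-miR-Vec mean of each probe was subtracted. The nearest were TACC3, a mitotic spindle protein, at a distance of 0.0194 log2 units, RTFDC1 at 0.0491, COPE, a subunit of the COPI vesicle coat, at 0.13, AKR1A1, an aldehyde reductase, at 0.156, and SAP30, a subunit of a histone deacetylase complex, at 0.169. Their log2 ratios lay between -4.05 and -3.94, as the measure requires. A second probe of RTFDC1 gave -1.97. With 4 arrays this likeness says little beyond a fall of the same size. Of the 3 nearest protein-coding genes with a probe on either side of ASNA1 in the RefSeq gene order, TNPO2, TRIR and HOOK2 were lower (-0.97, -1.58 and -1.49), JUNB was higher (0.65), and FBXW9 and BEST2 did not pass (0.17 and 0.08). Over all genes, 22.4% were lower and 24.6% higher. Of the 36 such neighbors of all measured members, 12 were lower and 9 higher. None of the ASNA1 neighbors had a ratio near that of ASNA1. Because ASNA1 was chosen for its extreme fall, this was likely beforehand and says little.

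Genes that work beside the pathway were counted on the brightest probe of each. Over all 18365 genes measured, 22.4% were lower and 24.6% higher, with a median log2 ratio of 0.09. Of the 6 measured GET pathway genes, 3 were lower and 1 higher on that probe, ASNA1 included, with a median of -0.55.

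Among 8 measured partners of BAG6 in quality control, 6 were lower and 0 higher (limma, also 0 higher at an unadjusted p under 0.05), with a median log2 ratio of -0.71. VCP, the ATPase that extracts ubiquitinated proteins, had intensities of 10546 and 9027 in DLD-1-miR-21 cells and of 51434 and 55600 in DLD-1-miR-Vec cells, and fell by 1.26 on the log2 scale. The deubiquitinase USP13 and the ubiquitin-binding shuttle UBQLN4 had log2 ratios of -1.15 and -0.95, though their second probes gave -0.42 and 0.41 and did not pass (adjusted p = 0.0673 and 0.125 from limma). HSPA8, the HSP70 chaperone that passes clients to SGTA, is named after its values were seen, because its probes differed most, with -0.28 on the brightest (adjusted p = 0.125 from limma) and -3.85 on the other. Over all 14 probes of this list, 8 were lower and 2 higher. The 2 higher ones were the second probes of UBQLN2 (0.92) and SGTB (0.81). On the brightest probe UBQLN2 was called lower (-0.56) and SGTB did not pass (-0.10). Without DLD-1-miR-21 replicate 1, where calls over the whole array also fell in number, 2 of the 8 genes were called lower (limma, 6 at an unadjusted p under 0.05), and without either DLD-1-miR-Vec array 4.

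The ER membrane protein complex inserts tail-anchored proteins of moderate hydrophobicity by another route. Of its 10 subunits 5 were lower and 1 higher, with a median log2 ratio of -0.44. EMC9 had intensities of 245 and 283 in DLD-1-miR-21 cells, against 4666 and 5431 in DLD-1-miR-Vec cells (log2 ratio -3.06, adjusted p = 0.00196 from limma). EMC3, the subunit related to the Oxa1 insertases and so to WRB, had -1.45 and -1.43 on its 2 probes, and EMC7 had -1.07. EMC1 was higher, at 1.21 and 0.75 on its 2 probes, although with no normalization the brighter one was at -0.036. Without DLD-1-miR-21 replicate 1, when fewer probes passed on the whole array as well, 3 genes were called lower, and EMC9, EMC3 and EMC7 had log2 ratios of -3.22, -1.44 and -1.15.

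On the signal recognition particle and SEC61 route, 9 of 14 genes were lower and 1 higher, with a median log2 ratio of -0.50. TMEM208, which is counted here although its yeast counterpart serves a targeting route independent of the signal recognition particle, had -2.01, the translocon-associated TRAM1 -1.66 and the channel subunit SEC61A1 -1.46. SEC61A2 had 0.76 on its brightest probe, but -1.41 on its other probe and -0.50 with no normalization, so no direction is given for it. The lower genes numbered 5 without DLD-1-miR-21 replicate 1 or DLD-1-miR-Vec replicate 2, and 6 without DLD-1-miR-Vec replicate 1, settings in which the whole array also had fewer calls.

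Among the transcripts of 35 tail-anchored proteins, 13 were lower and 5 higher, while 17 missed the threshold, with a median log2 ratio of -0.24. They are called clients here, but their use of the GET pathway was not tested. Over all 56 probes of this list, 18 were lower and 7 higher. Probes of a gene could disagree. VAPB counted as lower at -0.61, but its other probes gave 0.71 and 0.74. UBE2J2 counted as higher at 0.49, but its second probe gave -1.31. Heme oxygenase HMOX1 had intensities of 314 and 375 in DLD-1-miR-21 cells and of 2339 and 2515 in DLD-1-miR-Vec cells, at a log2 ratio of -1.64. Cytochrome b5 (CYB5A) had -1.34 and -2.04 on its 2 probes, and the SNARE STX10 had -1.04. The SNAREs USE1, VAMP3 and GOSR1 were higher, at 1.02, 0.85 and 0.66, though with no normalization they were at -0.23, -0.29 and -0.54. Second probes of VAMP3 and GOSR1 gave 0.13 and -0.27, neither of which passed. SEC61B, a common model client, had -0.28 and -0.31 on its probes and did not pass on the brighter (adjusted p = 0.166 from limma). In this list 3 genes were lower and 0 higher without DLD-1-miR-21 replicate 1 (limma, where an unadjusted p under 0.05 gave 13 lower and 4 higher). There were 6 lower and 3 higher without DLD-1-miR-Vec replicate 1, and 5 lower and 2 higher without DLD-1-miR-Vec replicate 2. Without DLD-1-miR-21 replicate 2 no gene passed in any of the 4 lists, while at an unadjusted p under 0.05 (limma) 5, 5, 9 and 11 genes were lower and 0, 1, 2 and 6 higher, in the order in which the lists are given. None of the lists was tested against other genes, and all were written with earlier results of these data known.

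**Figure D4:**
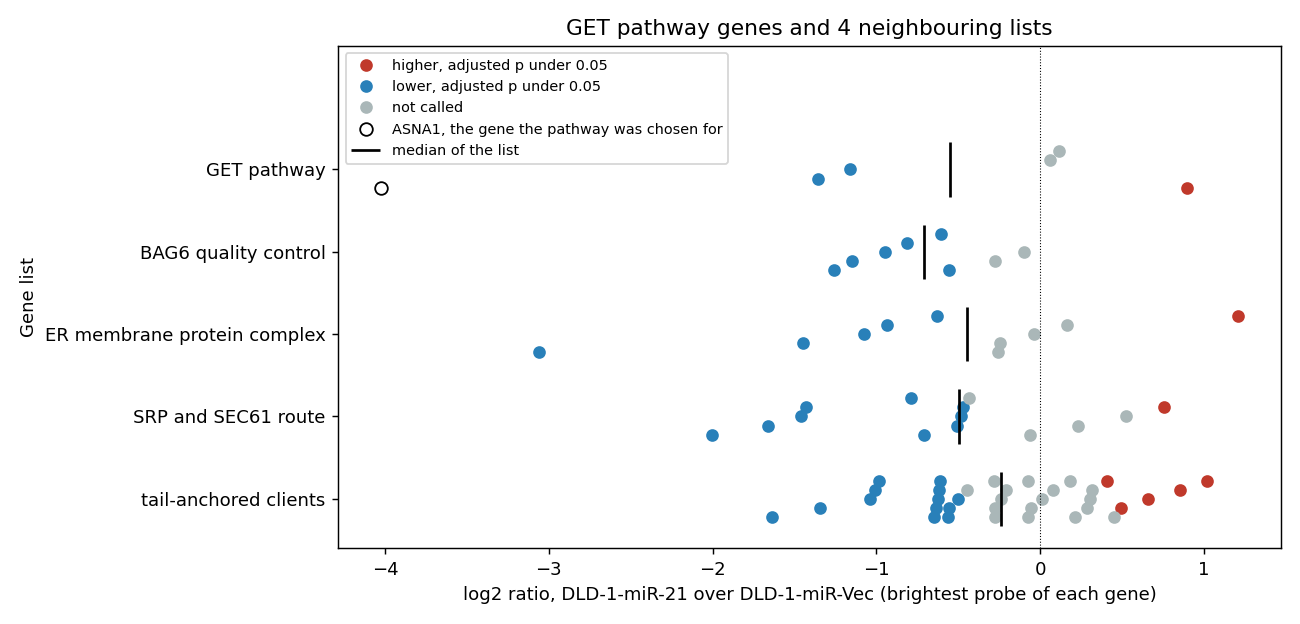
Log2 ratio, DLD-1-miR-21 divided by DLD-1-miR-Vec (horizontal axis, brightest probe of each gene) in the GET pathway and 4 neighboring gene lists (vertical axis). Points are genes, spread vertically for legibility and colored by call, the open circle is ASNA1, and black lines are medians. The medians run from -0.71 in BAG6 quality control to -0.24 in the tail-anchored clients. The latter are tail-anchored proteins whose use of the GET pathway was not tested.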

How the data were processed

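RNA from each line was amplified, coupled to Cy5 and hybridized to Human OneArray Plus arrays, 2 per line. The authors deposited linear intensities, 1 per probe, some of them below 0, so a background had been subtracted. The scanner, feature extraction and normalization were not given in the sources used here. No detection call came with them, and the number of arrays limits the precision. Intensities were quantile-normalized with limma 3.58.1 in R 4.3.3, 50 was added, and log2 values were compared on group alone with lmFit and eBayes (2 residual and 2.48 prior degrees of freedom), with Benjamini-Hochberg adjustment over all probes. The added 50 understates ratios of dim probes. A positive log2 ratio means a higher level in DLD-1-miR-21.

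Probes were named through the array platform's annotation, whose symbols may be outdated. Of the probes, 24740 carried 1 symbol, 977 several and 6024 none, and probes with several named no gene. All probes of the 7 members are reported. In the 4 neighboring lists a gene took its brightest probe, which disfavors probes that fell, and the text names the 3 largest called changes in each direction, the 5 genes nearest to ASNA1, PDCD4, and some genes chosen after their values were seen. Chromosomal neighbors were added after seeing the data, with their order taken from RefSeq for GRCh38.p14. KRT18 and MIR21 had no probe with that symbol alone and, like some other list genes not reported here, were not analysed. Members and lists were chosen with earlier results of these data known. The script was tested on simulated arrays. Alternatives were 3 other scalings, 2 other offsets, 2 filters on dim probes, a robust eBayes fit with a variance trend, the replicate block, leaving out each array, and, for lists, 2 other ways to represent a gene.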

Additional observations from a re-analysis of the deposited data

How the results depend on the processing

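ASNA1, SGTA, both WRB probes and the dimmer GET4 probe stayed below 0 in all 13 alternatives run on probes, with ASNA1 between -4.91 and -3.76. CAMLG stayed above 0 in the 12 that kept its probe. With no normalization between arrays, where the median of all probes moved to -0.63, 416 probes were higher and 14025 lower (limma), and the median of the GET pathway probes was -2.24, with 0 higher. BAG6 was then at -1.17, the brighter GET4 probe at -1.09, EMC1 at -0.036, SEC61A2 at -0.50, GOSR1 at -0.54, USE1 at -0.23 and VAMP3 at -0.29, and in the ER membrane protein complex, the SEC61 route and the tail-anchored clients 0 genes were higher, with 9 lower in the first list and 31 in the last. Median centring gave a GET pathway median of -1.39, -0.24 for the brighter GET4 probe and -0.32 for BAG6, with 0 genes of the SEC61 route and 1 client higher. Cyclic loess gave -0.046 for BAG6, 0 GET pathway probes higher and 3 clients higher. Without the dimmest 50% of probes, 4685 probes were higher and 4324 lower, and the CAMLG probe was left out, so 0 GET pathway probes were higher and the median was -1.16.

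On the second brightest probe UBQLN4 had 0.41, SEC61A2 -1.41 and GOSR1 -0.27, and 2 BAG6 partners, 0 genes of the SEC61 route and 2 clients were higher. The mean of all probes gave SEC61A2 -0.33, with 0 genes of that route and 2 clients higher. Leaving out single arrays gave 0 to 6702 probes higher and 0 to 5978 lower (limma), and 0 to 1 GET pathway probes higher and 0 to 5 lower. Lower genes numbered 0 to 4 among BAG6 partners, 0 to 5 in the ER membrane protein complex, 0 to 6 on the SEC61 route and 0 to 6 among clients, and higher ones 0 to 1 in the ER membrane protein complex and on the SEC61 route and 0 to 3 among clients. The lowest counts came without DLD-1-miR-21 replicate 2, and the cause was not tested. GET pathway counts and medians in this section include ASNA1, for which the set was chosen, and describe the set only. The replicate numbers of the lines were not shown to pair the arrays, since the deviations of arrays with the same number correlated at -0.07. With the replicate block 3 clients were higher and 6 lower, 5678 probes were higher and 5744 lower, and no GET pathway call changed.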
